A study of Mus musculus with 18 samples.

Results

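Elastic fibres give tissues their recoil, and 10 genes that encode their parts and assembly factors were examined in the sorted stromal cells and lacteal endothelium of the mouse small intestine. The genes were Eln, Fbn1, Mfap4, Fbln1, Fbln2, Fbln5, Efemp1, Efemp2, Lox and Loxl1. They were taken from the 23238 distinct gene symbols of 18 count tables by name. The list was chosen by function with the CPM (a library's read counts scaled to a common library size) of these libraries in the 4 groups already known, so the levels and genotype differences of the 10 genes are given as a description. No p-value of theirs is printed, and where members past the threshold are counted, the count is a description too.

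Bulk RNA was profiled from intestinal stromal cells (IntSCs) and from lymphatic endothelial cells (LECs) of the villus lymphatics, called lacteals. All mice were adults on the C57BL/6J strain. The WT mice had the genotype PDGFRb+-CreERT2-Tomato+. The KO mice carried in addition the floxed alleles Lats1f/f and Lats2 f/f, so that both groups held the tamoxifen-inducible Cre and the Tomato reporter. The Pdgfrb promoter that drives this Cre is active in fibroblasts, pericytes and some smooth muscle cells, and LECs were not its target. IntSCs were sorted as Tomato-positive cells after depletion of leukocytes, epithelium and endothelium, and LECs by antibodies against CD31 and podoplanin. There were 6 WT IntSC, 5 KO IntSC, 4 WT LEC and 3 KO LEC libraries. The labels number the replicates and do not name the animals. The study's legends count mice per group in the same numbers as these libraries, pooled over more than 1 experiment. The replicates within a group are therefore taken as separate mice. Which library belongs to which experiment, and whether an IntSC and an LEC library share a mouse, is not given in the sources used here.

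Elastin, the product of Eln, is secreted as a soluble monomer and is laid down on a scaffold of fibrillin microfibrils. Fibulins carry the monomer and the cross-linking enzymes to that scaffold, and lysyl oxidases then join the monomers into an insoluble core. In the gut wall such fibres are made mainly by fibroblasts and smooth muscle cells, and lymphatic vessels are tethered to the matrix by fibrillin-rich anchoring filaments. Lats1 and Lats2 encode kinases that hold back YAP and TAZ, a pair of co-activators that act on DNA through TEAD factors.

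The sequence upstream of the transcription start is shown for Fbln5 and Efemp1, the members whose KO IntSC libraries all lay above the WT libraries, and for Fbln1, which was lower. Windows of the RefSeq table of assembly GRCm38.p6 were used for 6 of the 10 members, and the files use the same assembly under the name mm10. No window was found for Eln, Mfap4 and Loxl1, and the chromosome of Lox was left out by choice. Each sequence is the 250 bases before the most upstream start listed, 5′ to 3′ on the strand of the gene, with capitals for a match to the AP-1 motif TGANTCA or to the TEAD core GGAATG on either strand.
Fbln5 (chr12:101819120-101819369, minus strand): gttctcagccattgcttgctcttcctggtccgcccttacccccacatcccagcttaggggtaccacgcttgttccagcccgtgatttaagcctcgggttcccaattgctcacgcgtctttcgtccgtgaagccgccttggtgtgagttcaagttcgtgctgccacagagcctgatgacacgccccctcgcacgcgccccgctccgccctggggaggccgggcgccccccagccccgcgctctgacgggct
Efemp1 (chr11:28852955-28853204, plus strand): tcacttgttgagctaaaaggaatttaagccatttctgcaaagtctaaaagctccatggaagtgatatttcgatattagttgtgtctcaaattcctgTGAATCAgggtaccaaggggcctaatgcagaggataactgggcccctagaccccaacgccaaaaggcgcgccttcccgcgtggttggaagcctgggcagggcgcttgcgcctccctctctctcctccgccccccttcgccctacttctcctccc
Fbln1 (chr15:85205699-85205948, plus strand): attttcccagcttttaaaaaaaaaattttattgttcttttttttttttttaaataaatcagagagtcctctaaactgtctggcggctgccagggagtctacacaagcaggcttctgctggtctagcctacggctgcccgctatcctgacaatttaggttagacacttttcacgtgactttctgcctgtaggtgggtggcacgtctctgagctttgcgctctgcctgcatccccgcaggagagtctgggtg
The AP-1 letters occurred 1 time in Efemp1, beginning 154 bases before the start, and were absent from the Fbln5 and Fbln1 windows. They occurred in 6.75% of all 32851 windows of this length. The TEAD core letters GGAATG were absent from these 3 windows and occurred in 12.6% of all windows. The study gives the shorter GGAAT as its TEAD-binding sequence, which was not counted here. The Efemp1 window holds those shorter letters, as ggaat and, for the other strand, as attcc. No match of one motif overlapped a match of the other. Fbln5 had a GC content of 65.2%, Efemp1 of 53.6% and Fbln1 of 46.4%, and the median of all windows was 52.4%.

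The total count per library lay between 5361250 and 10549233, and 3 reads corresponded to between 0.281 and 0.632 CPM. The counts of the deleted genes could not serve as a check of the labels. Counts were per gene, and reads at the 3′ end can remain after internal exons are lost. Lats1 was 0 to 30.1 CPM in WT and 12.9 to 21.2 CPM in KO IntSCs, and Lats2 was 41.5 to 113 CPM and 79.98 to 130.03 CPM. The cause of these levels was not tested, and groups are therefore those of the libraries labelled WT and KO. The sorted cell types carried their defining markers. The summed CPM of 8 fibroblast markers (Pdgfra, Dcn, Lum, Col1a1, Col1a2, Col3a1, Col6a1 and Dpt) was 11643 to 17392 in WT IntSCs, 7460.4 to 12457 in KO IntSCs, 661 to 2122 in WT LECs and 313 to 579 in KO LECs. The highest LEC value was that of WT LEC 1, and the other WT LECs lay between 661 and 704. The summed CPM of 7 LEC markers was 8202 to 14337 in the LEC libraries and 201 to 417 in the IntSC libraries. In bulk RNA, fewer cells of a type and less RNA per cell cannot be told apart.

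Whether the stromal cells of the KO mice differed in their elastic fibre genes was examined first. Fbln5, which binds elastin and guides its deposition, was 4.60-fold higher in KO IntSCs, and Lox was 2.76-fold and Efemp1 1.75-fold higher. Fbln1 was 2.04-fold lower, Mfap4 1.85-fold, Efemp2 1.59-fold and Loxl1 1.45-fold lower. Eln, Fbn1 and Fbln2 differed by less than their standard errors. Of the 10 members, 4 had a log2 fold change above 0 and 6 below 0, with a median of -0.10, and the median of all 12421 genes tested was 0.0026. An edgeR adjusted p under 0.05 was reached by 1.47% of all genes and by 3 members, Fbln5, Fbln1 and Mfap4. KO and WT libraries did not overlap for 2.83% of all genes and for 3 members, Fbln5 and Efemp1 above and Mfap4 below. The members were chosen with these values in view, and nothing is read from these counts.

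**Figure D1:**
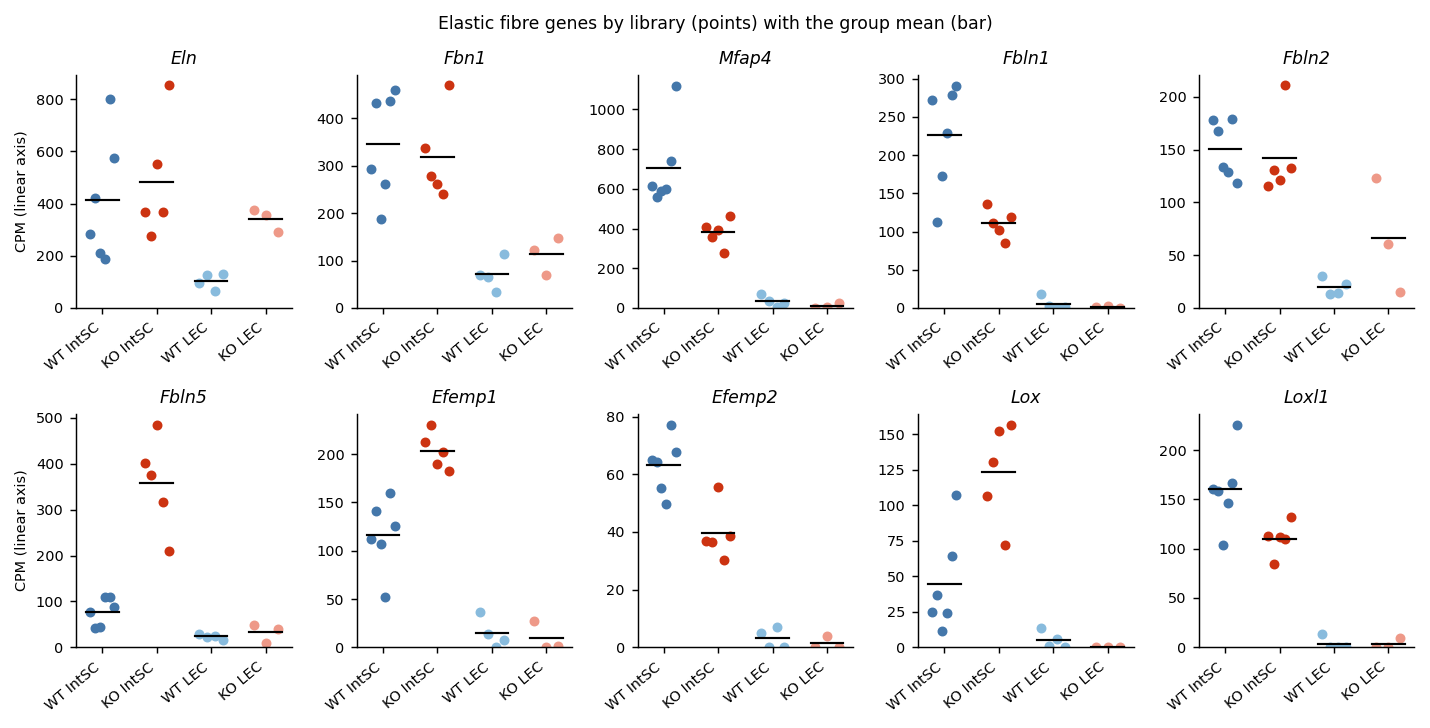
CPM of each of the 10 elastic fibre genes (vertical axis, linear, from 0, scaled per gene) in the 4 groups, with 1 point per library and a bar at the group mean. The 5 KO IntSC libraries sit above the 6 WT libraries for Fbln5 and Efemp1 and below them for Mfap4, and the 3 KO LEC libraries sit above the 4 WT LEC libraries for Eln.

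Eln encodes the elastic core itself. In the 6 WT IntSC libraries its level ran from 189 to 803 CPM with a median of 353 CPM, and in KO IntSCs 1 to 5 it was 368, 275, 553, 369 and 855 CPM. The groups covered almost the same range, and the spread within each group, with SDs of 239 and 231 CPM, was wider than the difference between the means of 414 and 484 CPM. The log2 fold change was 0.22 ± 0.37 (SE).

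Fbn1 encodes fibrillin-1, the backbone of the microfibril. It ran from 187 to 459.5 CPM in WT IntSCs with a median of 363 CPM, and was 338, 278, 262, 239 and 471 CPM in KO IntSCs 1 to 5. These groups overlapped along nearly their whole length (log2 fold change -0.12 ± 0.23, SE). Mfap4, a microfibril-associated protein that binds elastin and fibrillin-1, ran from 557 to 1119.8 CPM in WT IntSCs with a median of 607 CPM. In KO IntSCs 1 to 5 Mfap4 was 408, 359, 395, 278 and 463 CPM, each below every WT library. This was a log2 fold change of -0.89 ± 0.20 (SE), and of -0.70 without WT IntSC 6, which held the highest value.

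The fibulins were not all higher or lower together. Fbln5 ran from 41.5 to 109 CPM in WT IntSCs with a median of 81.8 CPM, and was 403, 375, 485, 316 and 210 CPM in KO IntSCs 1 to 5. Every KO library lay above every WT library, and the nearest pair was 101 CPM apart. The log2 fold change was 2.20 ± 0.27 (SE), and between 2.07 and 2.35 when each library was left out in turn. Efemp1, which encodes fibulin-3, ran from 52.0 to 159.5 CPM in WT with a median of 119 CPM. In KO IntSCs 1 to 5 Efemp1 was 213, 230.2, 189.9, 203 and 182 CPM, again above all WT libraries, for a log2 fold change of 0.81 ± 0.22 (SE).

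Fbln1, whose protein is found in elastic fibres and basement membranes, ran from 113 to 291 CPM in WT IntSCs with a median of 251 CPM. In KO IntSCs 1 to 5 Fbln1 was 136, 112, 101, 84.6 and 119 CPM. Of these, 3 lay below every WT library, and WT IntSC 2 at 113 CPM lay inside the KO range. Its log2 fold change was -1.03 ± 0.23 (SE). Efemp2, which encodes fibulin-4 and is needed for elastin cross-linking, ran from 49.7 to 77.1 CPM in WT with a median of 64.5 CPM, and was 36.9, 36.6, 55.6, 30.4 and 38.5 CPM in KO IntSCs. All but KO IntSC 3 lay below the WT range, with a log2 fold change of -0.67 ± 0.24 (SE). Fbln2 ran from 118 to 179 CPM in WT with a median of 151 CPM, and was 115, 130.4, 121, 211 and 132 CPM in KO IntSCs. KO IntSC 4 was above and KO IntSC 1 below the WT range, and the log2 fold change was -0.08 ± 0.20 (SE).

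The cross-linking enzymes differed in direction too. Lox, which encodes lysyl oxidase, ran from 11.5 to 107 CPM in WT IntSCs with a median of 30.8 CPM, and was 106, 131, 152, 72.3 and 157 CPM in KO IntSCs 1 to 5. WT IntSC 6 stood at the top of its group, inside the KO range, and 3 of the 5 KO libraries lay above every WT library. The log2 fold change of Lox was 1.46 ± 0.43 (SE), and 1.94 without WT IntSC 6. Loxl1, the lysyl oxidase-like enzyme that acts on elastin together with fibulin-5, ran from 104 to 225 CPM in WT with a median of 159.9 CPM. In KO IntSCs 1 to 5 Loxl1 was 113, 84.6, 112, 109.6 and 132 CPM, with only KO IntSC 2 outside the WT range and a log2 fold change of -0.54 ± 0.20 (SE).

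Some marker lists of other cells and of stromal subsets differed between the genotypes and others did not. The fibroblast sum, given above, was lower in the KO IntSCs with overlap, and 1 of its 8 genes was called lower and none higher (edgeR adjusted p under 0.05). The sum of 6 villus tip fibroblast markers was 151 to 284 CPM in WT and 88.8 to 135 CPM in KO IntSCs, with no overlap, and none of its genes was called. The sum of 6 adventitial fibroblast markers was 1544.5 to 3472 CPM in WT and 1244 to 1572 CPM in KO IntSCs, and its genes were called in both directions, 2 higher and 1 lower (median of the 6 log2 fold changes, 0.77). The sum of 7 smooth muscle markers was 1057 to 1832 CPM in WT and 1273 to 2361 CPM in KO IntSCs, and that of 6 pericyte markers was 279.8 to 519 CPM and 258 to 525 CPM, with wide overlap for both. Paneth cell markers, 4 in number, summed to 0.271 to 6.11 CPM in WT and 37.5 to 111 CPM in KO IntSCs. The part of these differences in the values of the elastic fibre genes was not tested.

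**Figure D2:**
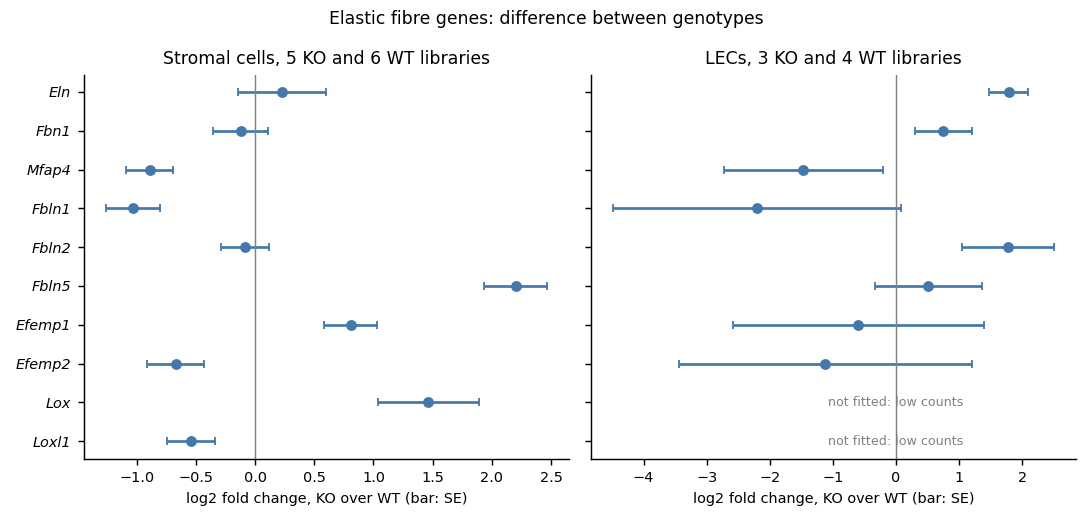
Log2 fold change of KO over WT for each elastic fibre gene (horizontal axis, with the SE as a bar) in IntSCs and LECs, from edgeR fits of the 2 groups. Fbln5 stands farthest from 0 in IntSCs at 2.20, and in LECs the bars of Fbln1, Efemp1 and Efemp2 reach across several log2 units, while Lox and Loxl1 had too few reads to be fitted there.

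A list of 22 further genes of the elastic fibre, none of them a member, was tested gene by gene in the fits of all genes, and not as a list. It held microfibril genes (Fbn2, Mfap2, Mfap5, Ltbp1, Ltbp2, Ltbp3 and Ltbp4), EMILIN genes (Emilin1, Emilin2 and Emilin3), cross-linking enzymes (Loxl2, Loxl3 and Loxl4) and distant fibulins (Fbln7 and Hmcn1). It also held fibrillin-binding genes of the ADAMTS-like (Adamtsl2, Adamtsl3, Adamtsl4, Adamtsl5 and Thsd4) and ADAMTS (Adamts10 and Adamts17) families. In IntSCs 21 of them had enough reads to be tested. Of these, 3 passed the edgeR threshold of 0.05 (1 up in KO and 2 down), beside the 1.47% of all genes given above. The median log2 fold change of the 21 genes was -0.29, and 8 had an unadjusted p under 0.05, as did 1219 of all 12421 genes.

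Fbln7, a short fibulin, ran from 109.9 to 223 CPM in WT IntSCs with a median of 153 CPM and fell to 78.6, 63.5, 56.8, 69.6 and 57.1 CPM in KO IntSCs 1 to 5. All KO libraries lay below the WT range (log2 fold change -1.28, SE 0.21; edgeR adjusted p = 0.00166). A single fit of all 4 groups gave Fbln7 an edgeR adjusted p of 1, and in fits without each library in turn it stayed between 0.00114 and 0.00914. Ltbp4, which encodes a latent TGF-beta binding protein that binds fibulin-4 and fibulin-5, ran from 1835 to 2432 CPM in WT with a median of 2122 CPM. It fell to 1529.9, 1333, 761, 1540.1 and 1006 CPM in KO IntSCs, below every WT library (log2 fold change -0.77, SE 0.18; edgeR adjusted p = 0.0328). This call was lost without WT IntSC 2, 3, 4 or 5 or without KO IntSC 2, 3 or 5, where the edgeR adjusted p of Ltbp4 lay between 0.0507 and 0.107.

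Loxl3, a lysyl oxidase-like enzyme, was the 1 partner called higher, while 8 of the 21 partners had a log2 fold change above 0. It ran from 37.6 to 92.6 CPM in WT IntSCs with a median of 55.3 CPM and was 138, 104, 116, 144 and 82.6 CPM in KO IntSCs 1 to 5, with KO IntSC 5 inside the WT range. Its log2 fold change, 0.98 with an SE of 0.25, had an edgeR adjusted p of 0.0497. It missed the threshold without WT IntSC 1, 2, 3, 5 or 6 or without KO IntSC 1, 2, 3 or 4, with an edgeR adjusted p of Loxl3 from 0.0534 to 0.150, and with RLE factors it was 0.0528. When the number was fitted as a block (the replicate block), Fbln7 alone of the partners passed, and the edgeR adjusted p was 0.0726 for Ltbp4 and 0.106 for Loxl3.

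**Figure D3:**
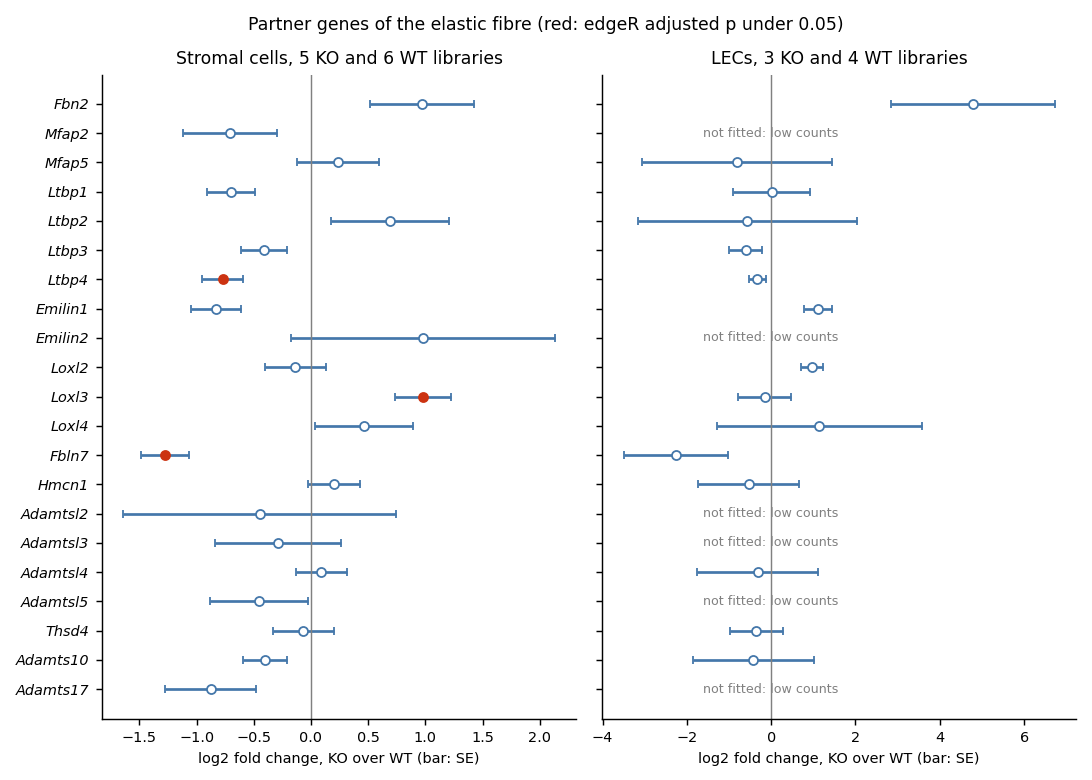
Log2 fold change of KO over WT (horizontal axis, with the SE as a bar) for the 21 partner genes tested in IntSCs and the 15 tested in LECs. Filled red points passed an edgeR adjusted p under 0.05, which were Fbln7, Ltbp4 and Loxl3 in IntSCs and no gene in LECs.

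Eln varied more between libraries of 1 group than between genotypes, and its pattern was compared with that of other genes over the 11 IntSC libraries. Among 10569 genes with a mean of at least 5 CPM, the 3 whose log2(CPM + 1) followed it most closely were Rgs2, with a Spearman rho of 0.945, and Fn1 and Prrc1, each with 0.882. Fn1 encodes fibronectin, a matrix protein on which microfibrils assemble. Of the other members, Fbn1 had a rho of 0.764 and ranked 35, Lox had 0.627 and ranked 221, and Loxl1 had 0.455. Fbln1 (0.045), Fbln2 (0.073) and Fbln5 (0.082) showed next to no relation to Eln over the pooled libraries. WT and KO libraries were pooled without adjustment for genotype, so a genotype difference, as for Fbln5, enters the rho. A relation within 1 genotype was not tested. All points share the same libraries and their scaling, so these values are a description.

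Fn1 was 605 to 881 CPM in WT and 663 to 837 CPM in KO IntSCs, and its highest libraries were WT IntSC 6 and KO IntSC 3. Rgs2, which encodes a regulator of G protein signalling, was 128 to 305 CPM in WT and 152 to 319.8 CPM in KO IntSCs, with the highest values in WT IntSC 5 and KO IntSC 5, as for Eln.

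The next comparison concerned the LECs, which lie beside the stromal cells in which the Cre is active. Eln was 3.44-fold higher in KO LECs and was the only member whose KO and WT libraries did not overlap, beside 9.93% of all genes. Fbln2 was 3.44-fold higher with overlap. Of the 10639 genes tested, 0.0658% reached an edgeR adjusted p under 0.05 and 837 an unadjusted p under 0.05. Of the 8 members tested none reached the adjusted threshold. Those 8 had a median log2 fold change of -0.04, with 4 above 0 and 4 below 0, and the median of all genes was -0.03. Lox and Loxl1 had too few reads to be fitted.

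Eln was 94.1, 127, 64.5 and 131 CPM in WT LECs 1 to 4 and 376, 356 and 293 CPM in KO LECs 1 to 3. The lowest KO library stood 162 CPM above the highest WT library. The log2 fold change was 1.78 ± 0.31 (SE), and between 1.60 and 1.90 when each library was left out. Measured against the WT IntSC mean, Eln stood at 15.6% to 31.7% in WT LECs and at 70.8% to 91.0% in KO LECs. The fibroblast marker sum in the same libraries stood at 4.57% to 14.7% in WT LECs and at 2.16% to 4.002% in KO LECs, and the smooth muscle marker sum at 5.95% to 17.1% and 7.53% to 8.35%. The fibroblast values of the KO LECs thus lay below the WT range and the smooth muscle values inside it, while Eln lay above. Other lists differed without overlap in the same libraries. The blood endothelial sum (5 markers) was 559 to 802 CPM in WT and 414 to 513 CPM in KO LECs. In the same order, the villus tip fibroblast sum was 5.06 to 20.7 CPM and 0.124 to 4.34 CPM. The Paneth cell sum was 0 to 0.617 CPM and 11.8 to 83.5 CPM. In each KO LEC library 5 of the 6 villus tip genes had no read, so each sum there came from a single gene. In the WT LECs 1 to 3 of the 6 had none. Only 1 gene of the villus tip list and 1 of the Paneth list had enough reads to be tested in LECs. The part of these list differences in the Eln values was not tested.

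Fbn1 was 69.4, 64.7, 33.9 and 115 CPM in WT LECs and 122, 69.8 and 147 CPM in KO LECs, so 2 of the 3 KO libraries topped the WT range, and its log2 fold change was 0.75 ± 0.46 (SE). Fbln2 was 30.7, 13.2, 14.0 and 22.9 CPM in WT LECs and 124, 60.3 and 15.3 CPM in KO LECs, so that KO LEC 3 lay inside the WT range. Its log2 fold change was 1.78 ± 0.73 (SE), and 0.99 without KO LEC 1. Fbln5, by contrast with its difference in stromal cells, was 30.1, 22.6, 25.5 and 16.8 CPM in WT and 47.7, 8.77 and 40.3 CPM in KO LECs, with KO libraries on both sides of the WT range and a log2 fold change of 0.51 ± 0.85 (SE).

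Of the remaining members, all but Mfap4 were at or below the detection limit in some LEC libraries. Mfap4 was 69.7, 33.9, 2.81 and 27.6 CPM in WT LECs and 1.26, 5.68 and 27.4 CPM in KO LECs. Efemp1 was 36.5, 14.1, 0.281 and 7.60 CPM in WT and 26.9, 0 and 1.12 CPM in KO LECs. Fbln1 reached 18.8 CPM in WT LEC 1 and was between 0.124 and 2.96 CPM in the other 6 LEC libraries.
For each of these 3 genes the groups overlapped, with a wide spread within each genotype. Efemp2 was 0 to 7.03 CPM, Loxl1 0 to 13.6 CPM and Lox 0 to 13.4 CPM over the 7 LEC libraries. In KO LECs Lox was 0.140, 0.103 and 0 CPM, each below the level of 3 reads, against 13.4, 0.864, 5.53 and 0.100 CPM in WT LECs. No fold is given for Lox in LECs, since the KO libraries lie below that level.

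**Figure D4:**
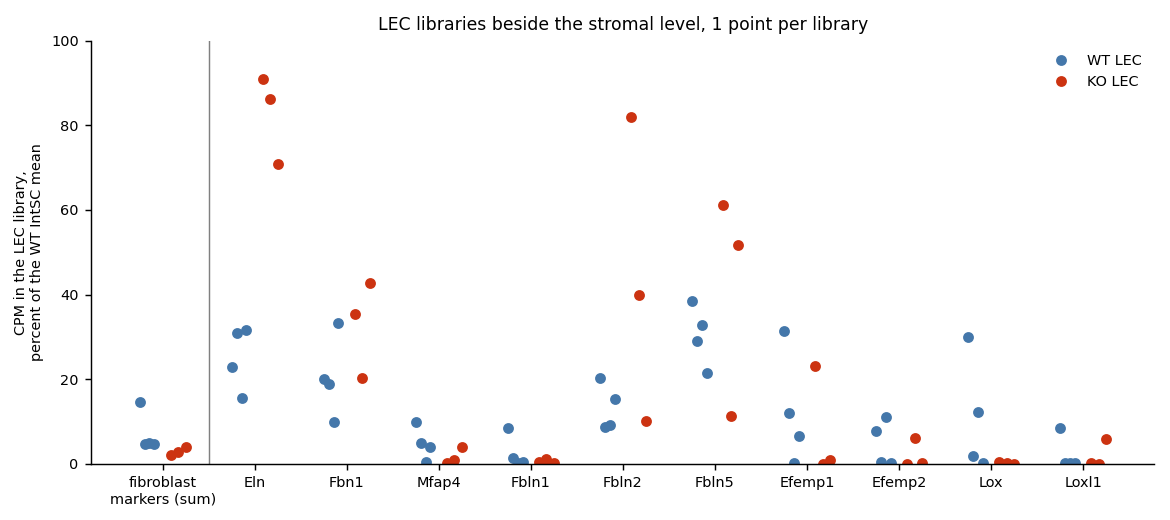
CPM of the fibroblast marker sum and of each elastic fibre gene in the 4 WT and 3 KO LEC libraries, as a percent of the WT IntSC mean (vertical axis, linear from 0), with 1 point per library. Eln in KO LECs sits between 70.8% and 91.0%, Fbln2 between 10.1% and 81.9%, and the fibroblast markers between 2.16% and 4.002%.

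Of the partner genes, 15 were tested in LECs and none passed. Their median log2 difference was -0.33, and 3 had an unadjusted p under 0.05. Loxl2, a cross-linking enzyme, was 139, 173, 146 and 196 CPM in WT LECs and 318, 271 and 321 CPM in KO LECs, without overlap (log2 fold change 0.96 ± 0.27, SE; edgeR adjusted p = 0.291). Emilin1, which encodes an elastin-associated glycoprotein found at the anchoring filaments of lymphatic vessels, was 99.6, 226, 106 and 135 CPM in WT and 289.7, 273 and 314 CPM in KO LECs, also without overlap (1.12 ± 0.33, SE; edgeR adjusted p = 0.350). Fbn2, which encodes fibrillin-2, was 4.38, 0, 0.375 and 0 CPM in WT and 14.5, 59.0 and 21.0 CPM in KO LECs (4.79 ± 1.94, SE; edgeR adjusted p = 0.526). Without WT LEC 1 the value of Fbn2 was 7.86, and without KO LEC 2 it was 3.96. Every KO LEC library lay above every WT LEC library for these 3 genes, as for 3.48% of all genes tested. The 3 were named for the smallest p in these same libraries, so nothing is read from their separation. None of them passed the threshold after adjustment over the 10639 genes tested. With all 4 groups in 1 fit the edgeR adjusted p was 0.04999 for Emilin1 and 0.0265 for Fbn2, and with DESeq2 the adjusted p of Loxl2 was 0.0224.

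In WT mice the stromal and endothelial levels were set side by side. All 10 members were lower in LECs. Their median log2 difference was -3.07, against -0.04 over all 12203 genes tested. All 10 passed an edgeR adjusted p under 0.05, as did 22.6% of all genes, and for 9 of them the libraries did not overlap, as for 21.1% of all genes. Nothing is read from these counts, since the levels were known when the genes were listed.
The members fell into a wide span. The LEC minus IntSC difference was -1.71 ± 0.38 for Fbln5, -1.98 ± 0.40 for Eln and -2.28 ± 0.35 for Fbn1 (log2, SE). It was -2.89 ± 0.32 for Fbln2, -2.99 ± 0.79 for Efemp1 and -3.15 ± 1.01 for Lox. For Efemp2, Mfap4, Fbln1 and Loxl1 it was -4.34 ± 0.88, -4.39 ± 0.64, -5.29 ± 0.91 and -5.44 ± 1.04. The 8 fibroblast markers had a median of -4.19 in the same fit and were all called lower in LECs.

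WT LEC 1 held more stromal marker RNA than the other WT LECs and also the highest level of 7 members in its group. Without it, the log2 difference was -7.43 for Fbln1, -5.04 for Mfap4, -4.001 for Efemp1 and -4.34 for Lox, and Efemp2 moved to -5.14 without WT LEC 3. Loxl1 was 0.370, 0.281 and 0.200 CPM in WT LECs 2 to 4, at or below the level of 3 reads, so no difference is given for it without WT LEC 1. Of the 7 members, Fbln5 was 30.1 CPM in WT LEC 1 and 16.8 to 25.5 CPM in the others. In LECs 2 to 4 of the WT group, Eln stood at 15.6% to 31.7% of the stromal mean, Fbn1 at 9.83% to 33.3%, Fbln5 at 21.5% to 32.7% and Fbln2 at 8.75% to 15.2%, where the fibroblast markers stood at 4.57% to 4.86%. In those same libraries Fbln1 stood at 0.166% to 1.31% and Loxl1 at 0.125% to 0.231%.

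Of the 21 partners tested between the WT cell types, all had a lower level in LECs, and 12 of them passed (edgeR adjusted p under 0.05). These were Fbn2, Mfap2, Mfap5, Ltbp1 and Ltbp3 among the microfibril genes, both distant fibulins (Fbln7 and Hmcn1), and Adamtsl2, Adamtsl3, Adamtsl5, Adamts10 and Adamts17. Hmcn1 was 223.7 ± 73.5 CPM in WT IntSCs (SD, n = 6) and 45.7 ± 20.1 CPM in WT LECs (SD, n = 4). Adamtsl5 was 28.7 ± 13.6 CPM in WT IntSCs and had no read in any LEC library, and Adamtsl2 and Adamtsl3 had none in WT LECs. None of the EMILIN genes and none of the lysyl oxidase-like partners passed in this fit. Loxl2 and Emilin1, at means of 164 and 141 CPM in WT LECs, lay below their stromal means of 244 and 209.7 CPM, with log2 differences of -0.57 ± 0.28 and -0.57 ± 0.27 (SE, edgeR adjusted p 0.179 and 0.159). Emilin1 did pass without WT LEC 2, and Loxl4 passed with limma-voom.
Under the replicate block 6 partners passed. The Fbn2 call (edgeR adjusted p = 0.0492) was lost without any single WT IntSC library and without WT LEC 2, 3 or 4, with an edgeR adjusted p between 0.0564 and 0.132, and that of Ltbp3 (0.0276) without WT LEC 3 (0.0793) or 4 (0.0539).

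A last fit over all 4 groups asked if IntSCs and LECs differed in their response to genotype. Its interaction term was defined as the IntSC difference minus the LEC difference. Its median over 14015 genes was 0.24 on the log2 scale, and values are to be read relative to that shift. An edgeR adjusted p under 0.05 was reached by 1.70% of all genes and by 1 member, Lox. In the KO LEC libraries Lox was 0 to 0.140 CPM, below the level of 3 reads, so its fitted term is not read as a size. Lox no longer passed without KO LEC 1 or without KO LEC 3, with limma-voom or under the replicate block. Eln, higher in KO LECs and level in IntSCs, had a term of -1.49 ± 0.55, Fbln2 of -1.80 ± 0.56 and Fbln5 of 1.76 ± 0.56. The comparison shares its libraries with those above, so these members' terms restate the differences already given.

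Of the partners, Emilin1 passed. It was lower in KO IntSCs, at 118 ± 33.2 CPM (SD, n = 5) against 209.7 ± 48.1 CPM in WT (SD, n = 6), and higher in KO LECs, at 292 ± 20.6 CPM (SD, n = 3) against 141 ± 58.2 CPM in WT (SD, n = 4). The interaction term was -1.88 ± 0.39 (log2, SE), and its edgeR adjusted p was 0.0105. When each library was left out in turn it lay between -2.20 and -1.74, with an edgeR adjusted p of Emilin1 of at most 0.0252. In the replicate block fit its edgeR adjusted p was 0.0722. Within each cell type the difference alone did not pass (edgeR adjusted p = 0.0594 in IntSCs and 0.350 in LECs). Adamtsl3 (edgeR adjusted p = 0.0579) and Fbn2 (-3.73 ± 1.40, edgeR adjusted p = 0.177) were next by p. The Adamtsl3 term rests on KO LEC 3, which held 8.31 CPM where the other KO LECs held 0.140 and 0 CPM and the WT LECs had no read, so its size is not given. Without KO LEC 3 its edgeR adjusted p was 0.410, without KO LEC 1 it was 0.0327 and without KO LEC 2 it was 0.0157, and under the replicate block it was 0.931. Fbn2 moved to -6.75 without WT LEC 1 (edgeR adjusted p = 0.00846) and to -2.90 without KO LEC 2 (0.304).

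Per the GENCODE annotation of GRCm38, exons of Efemp2 share bases with Mus81 and exons of Mfap4 with Mapk7 on the opposite strand, and Eln, Fbn1 and Lox each share bases with 1 predicted gene on the opposite strand. How the counting used strand is not given in the sources used here, so reads of these pairs cannot be told apart with certainty. Fbln1, Fbln2, Fbln5, Efemp1 and Loxl1 shared exon bases with no annotated gene.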

How the data were processed

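RNA of 18 libraries was measured with a QuantSeq protocol and Illumina sequencing. The study's methods name TopHat and Cufflinks, and the submitters' processing notes name Bowtie2, edgeR and the build mm10. The counting program and its annotation are not given in the sources used here. For each library a table of counts was deposited, with unnormalised whole-number reads for each gene symbol in 23282 rows. The counts of 35 symbols that stood on more than 1 row were summed.

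Groups came from the sample titles. The test was that of edgeR 4.0.16 (R 4.3.3), with TMM factors, filterByExpr, a robust quasi-likelihood fit and two-sided tests adjusted by Benjamini-Hochberg over all genes tested, at 0.05. Only the groups compared entered each fit, and all 4 entered the interaction. Standard errors were derived from the F statistic. The CPM printed use 1 set of TMM factors over the 18 libraries. A floor of 3 counts covers counting error only, while the SEs and SDs include the spread between libraries. The procedure was checked on simulated counts. Alternatives were RLE and upper-quartile factors, DESeq2 1.42.0, limma-voom (limma 3.58.1), other count filters, the replicate number as a block, all groups in 1 fit, removal of Rn45s and each library left out in turn.

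The members, the partner and marker lists, the tests and the alternatives were chosen with earlier results of these data known. Genes named were the 10 members, the partner genes past the threshold in a comparison or, where fewer than 3 passed, the 3 of smallest p, and the 3 genes of at least 5 CPM most like Eln. The genes of the marker lists were used only as list summaries. These were sums, numbers of genes tested, called or without reads, and median log2 fold changes. Promoter windows came from RefSeq (GRCm38.p6).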

Additional observations from a re-analysis of the deposited data

Results flagged for a closer look

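In 5 of 36 groups of 4 to 6 values a single library stood apart. The groups were the 10 members and the fibroblast and smooth muscle marker sums in WT IntSCs, KO IntSCs and WT LECs. The cut-off would mark about 1.8, or 1 in 20, if values were normal and groups independent. Normality was not checked, and the same libraries recur across the groups, so nothing is read from the number of groups marked. A gap is given as the share of the group's range that separates that library from its neighbour. WT LEC 1 held 18.8 CPM of Fbln1 against 0.375 to 2.96 CPM in the other WT LECs (gap 0.860), 13.6 CPM of Loxl1 against 0.200 to 0.370 CPM (gap 0.987) and a fibroblast marker sum of 2122 CPM against 661 to 704 CPM (gap 0.971). KO IntSC 4 held 211 CPM of Fbln2 against 115 to 132 CPM in the other KO IntSCs (gap 0.822). WT IntSC 6 held 1119.8 CPM of Mfap4 against 557 to 742 CPM in the other WT IntSCs (gap 0.671).

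The genotype difference differed between the cell types by the interaction term for Emilin1 (-1.88 on the log2 scale, edgeR adjusted p = 0.0105), which was lower in KO IntSCs and higher in KO LECs. Lox passed too, as did 1.70% of all genes, but it is a member chosen with its values known, so its call is a description. It no longer passed without KO LEC 1 or without KO LEC 3, with limma-voom or under the replicate block. Lox had a fitted term of 7.17 on the log2 scale. Its KO LEC libraries held 0 to 0.140 CPM, below the level of 3 reads, so this fitted value depends on the prior count and is neither a measured size nor a bound.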

How the results depend on the processing

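Of 774 member fold changes under the alternatives, 750 moved by less than the spread between replicates and 24 by more, and none that was called changed sign. Of 410 partner fold changes, 356 stayed on their side of the threshold, 46 fell short of it and 8 newly passed. The number of members past the threshold in IntSCs was 3, 5 with DESeq2, 5 with limma-voom, 1 with all 4 groups in 1 fit, and 1 to 4 with each library left out. These counts of members are a description. Without WT IntSC 5, KO IntSC 2, KO IntSC 3 or KO IntSC 4 only 1 member passed. The number of partners there was 3, 0 with all 4 groups in 1 fit and 1 to 3 with a library left out (1 without WT IntSC 2, 3 or 5 or KO IntSC 2 or 3). In LECs no member passed, against 1 with DESeq2, limma-voom, no filter or a mean count of at least 10, and 3 with all 4 groups in 1 fit, and no partner passed, against 1 with DESeq2, 3 with all 4 groups in 1 fit and 0 to 1 with a library left out (1 without KO LEC 2). For the interaction, the members numbered 1, 2 with DESeq2, 0 with limma-voom and 0 to 1 with a library left out (0 without KO LEC 1, and without KO LEC 3 the 1 member was Fbln2 and no longer Lox), and the partners 1, 3 with DESeq2 and 1 to 3 with a library left out (2 without WT LEC 1 or KO LEC 1, 3 without KO LEC 2). With the replicate block, the partners past the threshold numbered 1 in IntSCs, 6 between the WT cell types and 0 for the interaction, where 0 members passed. Between the genotypes, deviations of same-numbered libraries correlated at 0.0122 on average in IntSCs and -0.0078 in LECs. Between WT IntSCs and WT LECs the 4 same-numbered pairs lay between 0.0186 and 0.0406. Their mean was 0.0291, against -0.0058 for different numbers. Whether same-numbered WT libraries share a mouse was not tested. Counts over all genes ran from 27 to 376 in IntSCs (183), from 0 to 538 in LECs (7), from 1596 to 3640 between cell types (2763) and from 16 to 1035 for the interaction (238). The median shift of the interaction was 0.127 with RLE factors and 0.438 with limma-voom. The cause of these changes was not tested. At this depth, members under 0.281 to 0.632 CPM are not measured.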
